A study of Mus musculus with 32 samples.

Results

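Alveolar macrophages (AM), the macrophages that live in the air spaces of the lung, held 3777 ATAC-seq peaks that lay away from gene starts and that no other sorted lung phagocyte shared. ATAC-seq marks open chromatin by where a transposase can cut the DNA. A peak was counted as such a distal AM-only peak when it stood in the deposited AM list of C57BL6J mice, overlapped a peak of the AM list of DBA2J mice by at least 1 bp, overlapped no peak in the 6 lists of patrolling monocytes (pMo), inflammatory monocytes (iMo) or interstitial macrophages (IM), and had its midpoint more than 1 kb from every gene start in the authors' expression table. The 3777 peaks were chosen from 311509 peaks summed over the 8 lists. Of the 32668 AM peaks of C57BL6J mice, 28942 also stood in the DBA2J list, 3975 of these touched no peak of another type, and 3777 of those were distal. The remaining 198 AM-only peaks lay at most 1 kb from a gene start.

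The series sorted AM, IM, iMo and pMo from untreated lungs of DBA2J and C57BL6J mice, both inbred strains without an engineered allele in the labels. Each cell type and strain had 2 RNA-seq libraries and 2 ATAC-seq libraries, which gave 16 of each kind, and the 2 ATAC-seq libraries of a group were reduced by the authors to 1 peak list. The sort used antibodies to SiglecF, CD11c, CD64, Ly6g, Ly6c, CD11b, F4/80 and CD45, so the RNA of Itgax, which encodes CD11c, and of Siglecf is not independent of the sort. In 1 label field the iMo are called macrophages, but here they go by monocytes. The labels give no age and do not say that replicates came from separate mice, so p-values measure only the spread between these libraries. RNA levels are in TPM, a unit scaled by gene length and by the summed signal of the library, and without counts the depth of each library is unknown. In sorted bulk samples, fewer cells of a kind and less RNA or open chromatin per cell cannot be told apart.

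AM renew themselves in the air space under the growth factor GM-CSF and the cytokine TGF-β, which maintain the nuclear receptor PPARγ. They take up and break down lung surfactant, and they express many genes of lipid uptake, storage, hydrolysis and export. Distal open sites of macrophages are typically bound by PU.1, the factor that defines the myeloid lineage, together with other factors such as C/EBP, AP-1, RUNX and nuclear receptors. Much of what differs between tissue macrophages in chromatin lies at such distal sites rather than at gene starts.

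RNA of the AM markers was highest in the AM libraries. The marker lists were written with earlier results of these data known, and the AM list holds the sort markers Siglecf and Itgax. The sums are therefore no independent check of the labels. The 32 AM markers summed to 6710 to 7273 TPM in AM, against 1822 to 3089 TPM in IM, 611 to 1055 TPM in iMo and 1496 to 2114 TPM in pMo, and 30 of the 32 were called higher in AM than in the mean of the other types. Markers of IM, monocytes and neutrophils were low in AM. The 20 IM markers summed to 207 to 404 TPM in AM and 12166 to 22013 TPM in IM, and the 18 monocyte markers to 317 to 441 TPM in AM, against 6431 to 8372 TPM in iMo and 6818 to 8340 TPM in pMo. Among neutrophil markers, 8 genes summed to 18.9 to 27.0 TPM in AM and to 2870 to 4704 TPM in IM, with 178 to 240 TPM in iMo and 111 to 159 TPM in pMo. The part of these neutrophil transcripts in any AM and IM difference was not tested. The 4 endothelial markers summed to 9.33 to 82.4 TPM in AM, against 17.2 to 174 TPM in IM, 11.4 to 22.9 TPM in iMo and 18.2 to 34.0 TPM in pMo, so AM libraries reached above iMo and pMo. Among the IM libraries, C57BL6J replicate 2 stood apart: 23 of the 32 AM markers were highest there, and they summed to 3089 TPM, against 1822 to 2579 TPM in the other 3. It also had the highest sums of epithelial (69.3 TPM) and endothelial markers, and it sets the top of the range over the other types for Krt19, Plet1, Ear1 and Abcg1, among others. Without it, 512 genes near AM-only peaks were called higher and 654 lower in AM than in the mean of the others, close to the 505 and 655 with it. Rn45s, the precursor of ribosomal RNA, and Mir6236 together made up 64.3 to 67.6% of the summed TPM in AM, against 40.9 to 45.0% in IM, 22.6 to 44.7% in iMo and 43.0 to 57.4% in pMo. The TPM of the table summed to 800831 to 822130 in AM, against 697580 to 703213 in IM, 632076 to 708815 in iMo and 693649 to 753217 in pMo. Counts are therefore also given after median-of-ratios scaling, which divides each library by its median ratio to the mean profile.

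For 31 of the peaks, part or all of the DNA sequence could be read, because they overlapped a RefSeq promoter window (300 bases, from 250 before to 50 after a gene start, build GRCm38.p6, the same coordinates as the mm10 of the files). These starts are in RefSeq but not in the expression table, which is how peaks counted as distal came to lie on them. Of the 3684 peaks on chromosomes that the window table holds, 90 lay within 1 kb of a RefSeq start and 3594 did not. The sequences printed are 6 of these windows, those at Pparg and Krt19, which are AM markers, and at 4 more genes. These 4 were picked by no fixed rule from the windows that could be read. All 6 printed windows hold a motif match, while other windows, such as that of Cntrl, hold none. Capitals mark matches to one of the motifs searched on both strands, and all sequences run 5′ to 3′ on the strand of the window's gene. The sources used here do not say whether the deposited peak coordinates count from 0 or from 1, so a peak edge may be off by 1 base.

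The Pparg window (chr6:115362099-115362398, plus strand) is the start of a longer Pparg transcript, and its peak covered bases 78 to 278. The Gm39022 window (chr11:100166634-100166933, plus strand) lay 23.2 kb upstream of the Krt19 start in the expression table, and its peak covered bases 158 to 300. The Gm40478 window (chr12:85759408-85759707, minus strand) lay inside Flvcr2, and its peak covered bases 54 to 254. For the remaining windows, distances are from the start of the named gene in the expression table. They were Gm34349 (chr3:122480178-122480477, minus strand, 3.1 kb upstream of Bcar3, peak over bases 1 to 105), Gm34847 (chr8:122556098-122556397, plus strand, 4.9 kb upstream of Piezo1, peak over bases 41 to 241) and Trak1 (chr9:121382544-121382843, plus strand, 20.6 kb upstream of Trak1, peak over bases 175 to 300). RefSeq also holds a Bcar3 start farther upstream, 886 bp from another AM-only peak. That peak lay 62926 bp from the Bcar3 start in the expression table, so the printed Bcar3 peak is past the RefSeq start.
Pparg: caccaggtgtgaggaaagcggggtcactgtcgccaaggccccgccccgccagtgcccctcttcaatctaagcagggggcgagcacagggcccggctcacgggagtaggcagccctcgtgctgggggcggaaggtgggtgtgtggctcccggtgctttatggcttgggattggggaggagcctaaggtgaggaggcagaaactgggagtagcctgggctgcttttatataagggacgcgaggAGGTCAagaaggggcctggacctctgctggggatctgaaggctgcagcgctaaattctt
Gm39022 (Krt19): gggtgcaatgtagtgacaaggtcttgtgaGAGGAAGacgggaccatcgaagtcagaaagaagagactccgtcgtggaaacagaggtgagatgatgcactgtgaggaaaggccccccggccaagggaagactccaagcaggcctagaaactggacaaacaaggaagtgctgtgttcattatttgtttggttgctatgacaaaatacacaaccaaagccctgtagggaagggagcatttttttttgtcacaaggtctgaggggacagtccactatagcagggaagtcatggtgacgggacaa
Gm40478 (Flvcr2): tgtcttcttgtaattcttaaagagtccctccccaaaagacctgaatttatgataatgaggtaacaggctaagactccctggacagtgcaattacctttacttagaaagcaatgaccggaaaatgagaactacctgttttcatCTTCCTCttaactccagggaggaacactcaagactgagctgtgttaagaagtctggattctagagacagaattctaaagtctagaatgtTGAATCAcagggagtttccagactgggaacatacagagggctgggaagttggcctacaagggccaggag
Gm34349 (Bcar3): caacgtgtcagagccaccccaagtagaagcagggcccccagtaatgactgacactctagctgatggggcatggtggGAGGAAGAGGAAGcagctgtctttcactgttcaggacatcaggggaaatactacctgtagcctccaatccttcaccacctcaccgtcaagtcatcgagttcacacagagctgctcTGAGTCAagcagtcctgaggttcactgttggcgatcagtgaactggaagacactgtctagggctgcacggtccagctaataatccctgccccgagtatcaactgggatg
Gm34847 (Piezo1): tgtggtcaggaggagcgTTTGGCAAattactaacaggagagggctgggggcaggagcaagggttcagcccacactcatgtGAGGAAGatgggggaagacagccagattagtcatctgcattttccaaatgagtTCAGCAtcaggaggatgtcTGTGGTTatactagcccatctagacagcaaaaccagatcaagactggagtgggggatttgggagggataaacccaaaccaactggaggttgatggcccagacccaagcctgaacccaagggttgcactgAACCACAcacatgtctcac
Trak1: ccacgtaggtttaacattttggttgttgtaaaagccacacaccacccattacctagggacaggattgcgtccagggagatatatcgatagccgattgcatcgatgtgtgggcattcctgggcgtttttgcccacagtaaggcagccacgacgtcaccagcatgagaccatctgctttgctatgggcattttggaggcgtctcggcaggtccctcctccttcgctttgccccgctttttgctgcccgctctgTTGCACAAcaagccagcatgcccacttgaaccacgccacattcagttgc
Under the peak at Pparg stood 1 nuclear receptor site (bases 242 to 247), the sequence that PPARγ and its partner RXRα read as part of a repeat. The Flvcr2 peak covered a PU.1 match at bases 143 to 149 and an AP-1 match at bases 232 to 238. At Bcar3 the peak covered a pair of PU.1 matches that share base 83, while the AP-1 match at bases 192 to 198 lay outside it. The Piezo1 peak covered a PU.1 match (bases 81 to 87), a MAF site (bases 134 to 139) and a RUNX match (bases 153 to 159), and left a C/EBP match and a second RUNX match outside. In the Krt19 window the PU.1 match at bases 30 to 36 was outside the peak, and at Trak1 the C/EBP match at bases 252 to 259 was inside.

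Over the 31 windows, PU.1 (GAGGAAG) matched 6, or 19.4%, against 13.6% of all 32817 RefSeq windows. The nuclear receptor site (AGGTCA) matched 19.4% of the 31 and 16.3% of all windows, RUNX (TGTGGTT) 12.9% and 5.27%, the E-box (CACGTG) 12.9% and 7.15%, and the MAF site (TGCTGA) 29.0% and 19.5%. AP-1 (TGANTCA) matched 9.68% and 7.81%, C/EBP (TTGCNNAA) 12.9% and 10.8%, EGR (GTGGGCG) 9.68% and 7.97%, and KLF (GGGCGTG) 3.23% and 8.43%. C/EBP and MAF matches can overlap, and did in 2 windows. With 31 windows a share rests on between 1 and 9 matches, and a match is a description of letters, not of binding. The shares count whole windows, not peaks, and 11 of the 31 windows held the whole peak. Of the E-box matches, those at Creb5, Cyth3 and Gm30327 lay outside the peak, and that at 3300002A11Rik inside. The KLF match, at Ccdc186, also lay outside.

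AM had many more distal peaks of their own than the other types had. By the same rule IM had 308, iMo 268 and pMo 189, as the bar plot of type-only peaks shows. AM peaks of both strains numbered 20149 among distal sites, of which the AM-only peaks were 18.7%, and 5778 distal peaks stood in all 8 lists. Most of the other 16372 distal AM peaks touched a peak of IM (15660), and fewer touched one of iMo (11155) or pMo (13682). Distal position itself was typical of the AM-only set: 95.0% of AM-only peaks were distal, against 65.6% of AM peaks that another type shared and 46.3% of peaks in all 8 lists. The count rests on how long each list is, from 24429 to 70013 peaks, with IM of C57BL6J the longest. Leaving that list out gave 5682 AM-only peaks, and leaving out any other list gave 3793 to 4198. Where another type counted only if both its strains had the peak, 9696 remained.

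**Figure D1:**
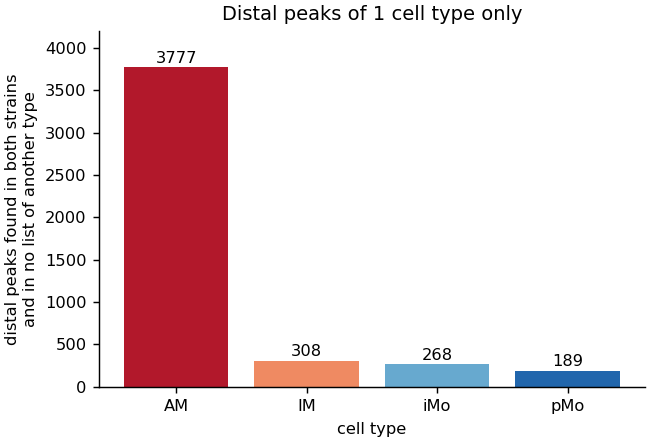
Number of distal peaks found in both strains of 1 cell type and in no list of another type, for AM, IM, iMo and pMo (bars, y axis from 0). AM had 3777, against 308 in IM, 268 in iMo and 189 in pMo.

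The AM-only peaks scored lower than shared ones. The score that the authors give each peak, on a scale the sources used here do not state, had a median of 36.8 in the C57BL6J list (from 21.6 to 615.7) and of 54.0 in the DBA2J list (from 25.8 to 418.0), and scores of separate lists are not compared. Within the C57BL6J list, AM-only promoter peaks had a median of 35.7, distal AM peaks shared with another type 48.7, and distal peaks of all 8 lists 64.9. The overlap between strains was close, with a median of 184 of 200 bp, and 15 peaks overlapped by under 50 bp, the smallest by 1 bp. On the other side of the rule, 63 distal AM peaks were left out on an overlap of under 50 bp with another type. A peak of another type was often nearby without touching: its midpoint was within 1 kb for 787 (20.8%) of the AM-only peaks and within 5 kb for 2266 (60.0%). Just inside the distance limit were peaks 1006 bp from Flvcr2, 1035 bp from Eps8l3 and 1049 bp from Themis2, and just outside were peaks 992 bp from Pcnx4 and Prrt1 and 982 bp from Snx24.

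The distance of AM-only peaks from a gene start lay between those of other sets. Their median distance was 22.52 kb, from 1.006 kb to 1160 kb, against medians of 17.95 kb for distal peaks of all 8 lists, 16.93 kb for IM-only, 40.78 kb for iMo-only and 40.20 kb for pMo-only distal peaks. By the gene spans of the expression table, 1508 peaks (39.9%) lay inside the gene with the nearest start, 566 (15.0%) inside another gene and 1703 (45.1%) outside genes. RefSeq spans of protein-coding genes, which also take in longer transcripts, held 2400 peaks (63.5%). A nearest start within 100 kb was found for 3401 peaks (90.0%), and these named 2004 genes, while 376 peaks (9.95%) were farther away. The nearest start is a convention of distance, and no file here shows which gene a peak acts on.

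Nearly as many AM-only peaks came in groups as alone. When neighbouring peaks were joined, 2063 (54.6%) stood alone and 1714 (45.4%) fell into 633 clusters of 2 or more. Clusters of 5 or more numbered 56, held 345 peaks and spanned a median of 19.4 kb. The largest had 19 peaks over 50.3 kb (chr19:55800716-55851013) in Tcf7l2, a transcription factor that binds β-catenin in the Wnt pathway. Measured from the start of the short Tcf7l2 transcript in the expression table these peaks lie upstream, but they are inside the RefSeq gene (chr19:55741797-55933659), 59.0 to 109.1 kb past its start. The next largest were 10 peaks over 41.8 kb in Nceh1, which hydrolyses cholesterol esters, 9 over 29.3 kb at Gm4651 and Mical3, and 8 each at Abcg1, Mgll, Rflna, Daglb and Rac1, Myo1e and Frmd4a. Clusters of 7 lay at Gramd4, at Iqgap1, at Cdh15 and Ankrd11, at Ifitm10 and at Mertk. That at Mertk, a receptor for the uptake of dead cells, spanned 11.7 kb.

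**Figure D2:**
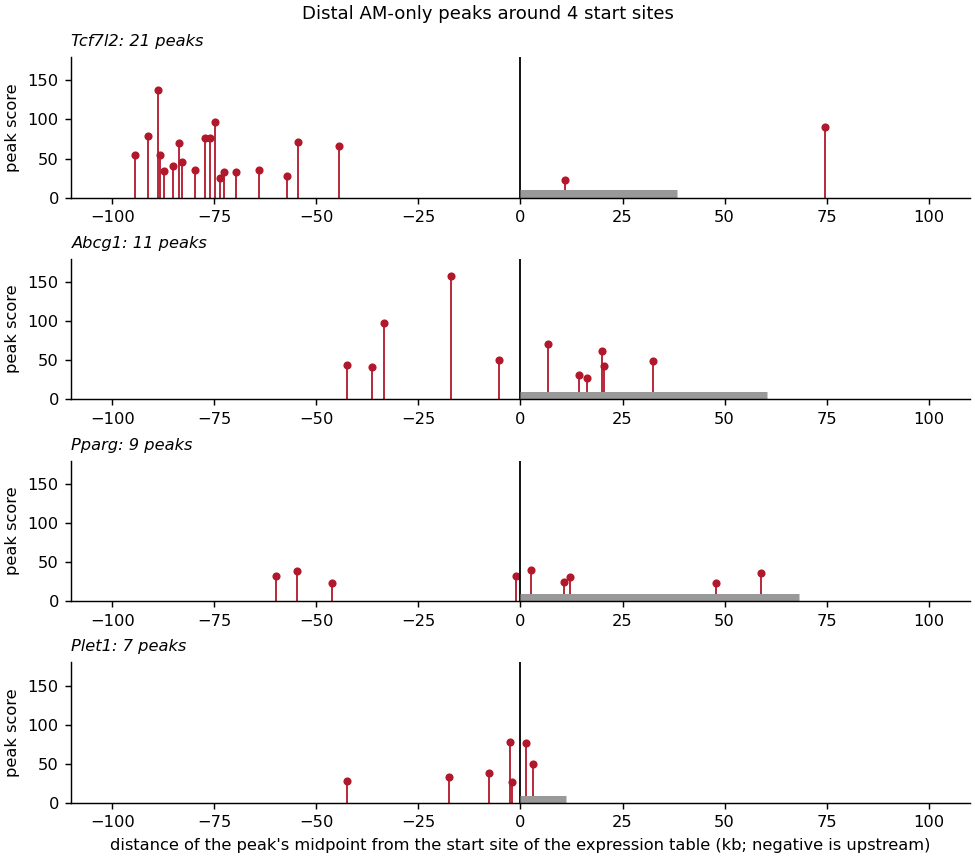
Distal AM-only peaks around the start sites of Tcf7l2, Abcg1, Pparg and Plet1 in the expression table. The x axis is the distance of the peak's midpoint from the start in kb (negative is upstream), the y axis the authors' score, each stem 1 peak, and the grey bar the transcript of the table. Of the 21 Tcf7l2 peaks 19 form the cluster on the left, which RefSeq places inside a longer Tcf7l2 gene.

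RNA was then compared between AM and the other types for the genes nearest to these peaks, a readout that the choice of peaks did not use. Of the 2004 genes, 1505 reached a mean of 1 TPM across all 16 libraries and were tested with limma, and 499 did not. A larger share of them than of all genes was called higher in AM, and a smaller share lower. In AM against the mean of IM, iMo and pMo, 505 (33.6%) were higher, with 12.48% of all 12277 genes tested higher, and 655 (43.5%) were lower, with 59.3% of all lower (limma, Benjamini-Hochberg adjusted p under 0.05). Their median log2 difference was -0.19, against -0.55 for all genes. After median-of-ratios scaling, 797 of 1512 (52.7%) were higher and 347 (22.9%) lower, with 32.9% and 31.0% of all genes, and the medians were 0.46 near AM-only peaks and 0.04 for all genes. So the split between higher and lower depended on the scaling, while the distance between the medians was 0.36 as deposited and 0.41 rescaled. With no filter on low values it was 0.08.

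Each of the other types gave the same order. Against IM, 366 genes (24.3%) were higher and 692 (46.0%) lower in AM, with 9.19% and 61.1% of all genes. Against iMo, 487 (32.4%) were higher and 609 (40.5%) lower, with 11.9% and 54.3% of all. Against pMo, 542 (36.0%) were higher and 530 (35.2%) lower, with 15.2% and 46.6% of all. These comparisons share the AM libraries. Once rescaled in the same way, 778 (51.5%) were higher and 298 (19.7%) lower against IM, with 33.6% and 28.3% of all, 751 (49.7%) and 327 (21.6%) against iMo, with 28.1% and 28.3% of all, and 768 (50.8%) and 361 (23.9%) against pMo, with 29.9% and 30.1% of all. Higher in AM than in each of the 3 types were 303 genes (20.1%, with 5.82% of all), or 587 (38.8%, with 18.1% of all) after rescaling. The AM libraries did not overlap the 12 others, and were above them, for 227 genes (15.1%, with 3.84% of all), and they were below all 12 for 331 genes (22.0%, with 30.4% of all). The median shift of genes near AM-only peaks over all genes was 0.36 and 0.40 in the DBA2J AM libraries, and 0.36 and 0.40 in the C57BL6J AM libraries.

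Other peak sets had other shares of genes higher in AM, against 12.48% of all genes tested. Genes next to the AM-only promoter peaks were higher in 84 of 150 cases (56.0%), those near distal AM peaks shared with another type in 798 of 4759 (16.8%), and those near distal peaks of all 8 lists in 377 of 2635 (14.3%). Near peaks of another single type it was 27 of 168 (16.1%) for IM, 4 of 72 (5.56%) for iMo and 5 of 90 (5.56%) for pMo. Lower in AM were 28.7% near AM-only promoter peaks, 60.8% near shared distal AM peaks, 65.1% near peaks of all 8 lists, and 58.3%, 68.1% and 82.2% near IM-only, iMo-only and pMo-only peaks, against 59.3% of all genes. After rescaling, 70.4% were higher near AM-only promoter peaks, 34.7% near shared distal AM peaks, 30.3% near peaks of all 8 lists, 30.7% near IM-only, 23.6% near iMo-only and 11 of 88 near pMo-only peaks, against 32.9% of all genes. Some genes belong to more than one of these sets, and the shares are descriptions without a test.

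The more AM-only peaks a gene had, the more often it was called higher in AM. The share was 9.53% of the 10772 genes with none, 25.3% of 949 with 1 peak, 39.3% of 305 with 2, 42.0% of 100 with 3, 57.6% of 59 with 4 and 75.0% of 92 with 5 or more. Of those 92 genes 69 were higher and 13 lower, and their median log2 difference was 1.45. The number of distal peaks that all 8 lists share showed no such order, with 14.9%, 14.0%, 8.91%, 15.2% and 15.6% higher for 1, 2, 3, 4 and 5 or more. The share also differed by distance: 44.7% of 425 genes were higher where the closest AM-only peak was 1 to 5 kb away, 35.2% of 585 at 5 to 20 kb, 25.6% of 340 at 20 to 50 kb and 14.2% of 155 at 50 to 100 kb. Rescaled, these shares were 64.4%, 53.3%, 47.8% and 29.0%, in the same order of distance, and the last was below the 32.9% of all genes.

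**Figure D3:**
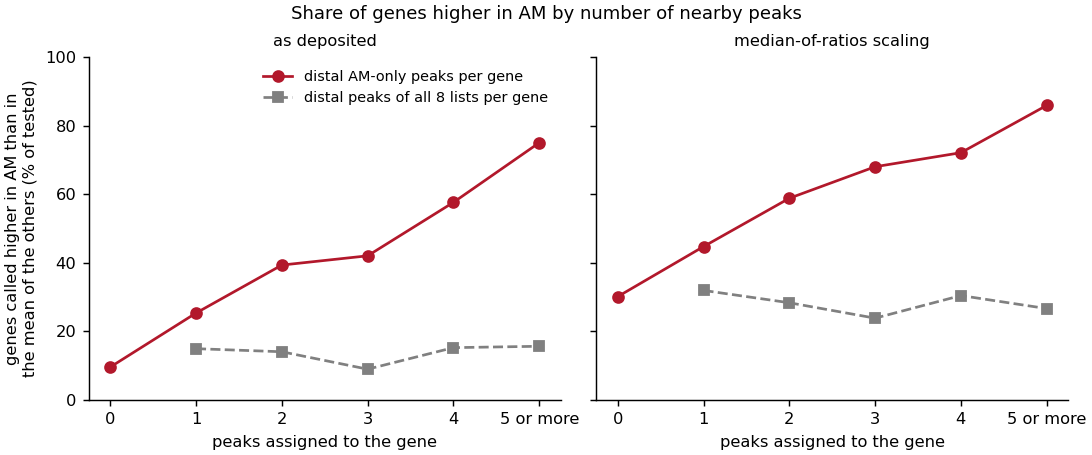
Share of tested genes called higher in AM than in the mean of IM, iMo and pMo (y axis, %) by the number of distal AM-only peaks (circles) or of distal peaks found in all 8 lists (squares) assigned to the gene, as deposited (left) and after median-of-ratios scaling (right). With AM-only peaks the share climbs to 75.0% as deposited and 85.9% rescaled, and with shared peaks it ends at 15.6% and 26.6%.

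Genes that mark AM were frequent among those with AM-only peaks. Of the 32 AM markers, 22 (68.8%) had at least 1, with 74 peaks in all, against 8.04% of the 24940 genes of the table and 12.3% of the genes tested. All 22 were higher in AM, also after rescaling, and as deposited 19 of them were higher than in each other type. The list was written knowing these data, so neither its direction nor its share with a peak is independent evidence. Of the 10 markers without an AM-only peak, among them Siglecf, Fabp4, Chil3 and Ear2, 8 were higher too.

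Krt19, a keratin, stood out in RNA. It had 369 and 324 TPM in DBA2J AM and 527 and 510 TPM in C57BL6J AM, and from 0 to 85.5 TPM (median 1.65) in the 12 libraries of other types. AM libraries were all above the others, and the log2 difference of AM from their mean was 6.61 ± 0.30 (SE, limma adjusted p = 6.2e-09). Its 6 AM-only peaks lay 1.4 to 24.5 kb upstream of its start in the expression table, and RefSeq places the closest inside Krt19. The best had a score of 182.9 at chr11:100149653-100149853, and another was the peak on the Gm39022 window printed above. Plet1, a surface protein known from placenta, had 336 and 350 TPM in DBA2J AM and 424 and 368 TPM in C57BL6J AM, against 0.088 to 104 TPM (median 2.14) elsewhere. Here, too, the AM libraries were above all others, and the log2 difference was 6.06 ± 0.22 (SE, limma adjusted p = 1.3e-09). Its 7 peaks lay within 42.5 kb on both sides of the start.

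The other AM markers ranged widely in size of difference. Ear1, a ribonuclease of the eosinophil-associated family with near-identical copies, had 624 and 826 TPM in DBA2J AM and 471 and 484 TPM in C57BL6J AM, against 0 to 224 TPM elsewhere, and a log2 difference of 6.22. Near-identical copies can split or share reads, so the value of Ear1 is uncertain. Krt79 (5.65), Cidec (5.58), Fabp1 (5.36), Acaa1b (5.20), Spp1 (5.07), Atp6v0d2 (4.70), Car4 (4.56), Perp (4.33) and Net1 (4.01) differed by at least 4 on the log2 scale, and Ly75, Cd9, Cd2, Olr1, Fabp5 and Marco by 2.58 to 3.62. As deposited, 3 markers were not higher than every other type. They were Mrc1, the mannose receptor, which differed from IM by -0.01 (limma adjusted p = 0.97), Itgax, which differed from pMo by 0.42 (adjusted p = 0.06), and Pparg. These exceptions may depend on the scaling. Over all genes tested, rescaling moved the median from -0.68 to 0.08 against IM and from -0.42 to 0.01 against pMo.

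Pparg encodes PPARγ, and it had 9 AM-only peaks with scores of 22.7 to 40.0. All 9 lay inside the RefSeq gene (chr6:115360879-115490404). Pparg had 12 and 20.3 TPM in DBA2J AM and 17.4 and 12.2 TPM in C57BL6J AM. The means as deposited were 15.5 TPM in AM, 9.31 TPM in IM, 2.03 TPM in iMo and 19.0 TPM in pMo. On this scale pMo and AM were on top, with overlapping libraries, then IM and then iMo. Pparg was higher in AM than in the mean of the others by 0.94 ± 0.18 on the log2 scale (limma adjusted p = 0.00054), while the difference from pMo as deposited was -0.27 (adjusted p = 0.28).

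Of 40 regulators of AM, 15 (37.5%) had AM-only peaks, 39 in all, against 8.04% of all genes of the table and 12.3% of those tested. Of the 15, 8 were higher in AM and 4 lower, and of the 25 regulators without a peak 7 were higher and 15 lower. Of all genes tested, 12.48% were higher and 59.3% lower. Rxra, the partner of PPARγ, had 6 peaks and means of 46.8 TPM in AM, 18.8 TPM in IM, 22.6 TPM in iMo and 10.6 TPM in pMo, with a log2 difference of 1.40 ± 0.11 (limma adjusted p = 7.9e-07). Bhlhe41, a repressor known from AM, had 1 peak 1.7 kb inside the gene and means of 61.6 TPM in AM, 32.7 TPM in IM, 1.17 TPM in iMo and 1.74 TPM in pMo. Tfec, of the family of MITF, had 2 peaks inside the gene and rose by 2.61. Also higher were Cebpa (1.18), Runx1 (0.95), Csf2rb (0.69), which encodes the shared chain of the GM-CSF receptor, and Tgfbr2 (0.42), a receptor chain for TGF-β.

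Rara, Spi1, Tfeb and Hif1a were lower in AM, and of these only Hif1a was called lower after rescaling as well. Hif1a, the oxygen-sensing factor, averaged 6.71 TPM in AM, 23.1 TPM in IM, 21.7 TPM in iMo and 11.1 TPM in pMo, a log2 difference of -1.27. Spi1, which encodes PU.1, averaged 114 TPM in AM, 124 TPM in IM and 193 TPM in iMo and had 164 to 237 TPM in pMo, and its log2 difference was -0.56 as deposited and 0.15 rescaled. Tfeb, a regulator of lysosome genes, gave -0.60 and 0.11, and Rara, a receptor for retinoic acid, -0.81 and -0.09. Fosl2, Runx2 and Tgfbr1 were not called, with log2 differences of -0.04, -0.06 and -0.31, and were positive (0.67, 0.61 and 0.40) and called higher after rescaling.

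Many lipid genes had an AM-only peak. Of 42 lipid genes, 19 (45.2%) had AM-only peaks, 56 in all, against 8.04% of all genes of the table and 12.3% of those tested. Of the 19, 15 were higher in AM and 2 lower. The 20 tested lipid genes without an AM-only peak had 6 higher and 8 lower. Of all genes tested, 12.48% were higher and 59.3% lower. The summed RNA of the 42 genes was lowest in AM, at 2221 to 2475 TPM, against 4042 to 9078 TPM in IM, 2956 to 4826 TPM in iMo and 3117 to 4490 TPM in pMo. Most of that sum outside AM was Apoe, a lipid carrier protein without an AM-only peak, at 57.1 to 171 TPM in AM, against 3007 to 7635 TPM in IM, 2047 to 3599 TPM in iMo and 2268 to 3515 TPM in pMo. In cholesterol export, Abcg1, which hands cholesterol to HDL, had 11 peaks, 6 of them inside the gene and the best, with a score of 158.0, 17.1 kb upstream. It had 382 and 412 TPM in DBA2J AM and 373 and 330 TPM in C57BL6J AM, and 15.5 to 119 TPM (median 37.4) in the other 12 libraries. The groups did not overlap, and the log2 difference was 3.34 ± 0.17 (limma adjusted p = 1.5e-08). Abca1, which exports cholesterol to poor lipid acceptors, had 3 peaks inside the gene and a log2 difference of 0.98 from the mean of the others. As deposited, Abca1 was lower in AM than in IM, by -0.92 (limma adjusted p = 0.00089). The median of all genes tested in AM against IM was -0.68 as deposited and 0.08 rescaled, so values against IM move with the scaling.

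Hydrolysis and storage of lipids came next. Mgll, monoacylglycerol lipase, had 8 peaks inside the gene, and 24.6 and 27.4 TPM in DBA2J AM and 31.0 and 28.6 TPM in C57BL6J AM. In the other 12 libraries it had 0.013 to 6.39 TPM (median 0.283), all below AM, and it differed by 3.82 ± 0.10 (limma adjusted p = 1.1e-10). Nceh1, with 10 peaks inside the gene, had 51.6 and 68.6 TPM in DBA2J AM and 59.9 and 57.1 TPM in C57BL6J AM, against 2.83 to 31.5 TPM (median 6.66) elsewhere, a difference of 2.71 ± 0.17. It was not on the lipid list and is described for its number of peaks. Lpl, which frees fatty acids from lipoproteins, had 2 peaks and differed by 3.07, its inhibitor Angptl4 had 1 peak and differed by 4.49, and Plin2, which coats lipid droplets, had 6 peaks and differed by 1.91.

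Fatty acid binding and oxidation were also among the lipid genes that were higher in AM. Fabp1, a carrier of fatty acids, had 5 peaks, the best 1.9 kb upstream with a score of 130.9. It had 168 and 102 TPM in DBA2J AM and 59.7 and 55.7 TPM in C57BL6J AM, against 0 to 11.8 TPM (median 0.487) elsewhere, with AM above all others. Acaa1b, a peroxisomal thiolase, differed by 5.20, Fabp5 by 2.74, and Pdk4, which turns fuel use from glucose to fat, by 1.94 at a low level of 3.60 to 4.05 TPM in AM. Smaller were Hadha (0.71), Lpcat3 (0.70), Cpt1a (0.63), the gate of mitochondrial fat oxidation, and Pnpla2 (0.47). Acsl3 was lower by -1.41, and Npc2 by -0.71 as deposited and -0.00 rescaled, when it lost its call. Dgat1 (0.14, limma adjusted p = 0.31) and Mylip (0.31, adjusted p = 0.051) were not called as deposited. After rescaling, 17 of the 19 lipid genes with a peak were called higher, Dgat1 and Mylip among them, and 1 lower.

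Other lists differed in how many of their genes had an AM-only peak, against 8.04% of all genes. Of all genes tested, 12.48% were higher and 59.3% lower in AM. Lysosome genes had 8 of 27 (29.6%), of which 6 were higher and 2 lower in AM, and the 19 without a peak had 9 higher and 5 lower. The 21 cell cycle genes had none, although 14 of the 19 tested were higher in AM, so their RNA differed without a distal AM-only peak nearby. IM markers had 2 of 20 (10.0%; Ccl2 and Ccl12, both lower in AM), monocyte markers 1 of 18 (5.56%; F13a1, lower), MHC class II genes 0 of 10, neutrophil markers 0 of 8 and T and NK cell markers 0 of 4. The short lists of 4 to 6 genes had 1 of 5 B cell markers (Ms4a1, lower), 1 of 4 endothelial markers (Pecam1, lower), and 2 of 6 epithelial markers (Cdh1 and Epcam, both higher in AM). The 6 epithelial markers summed to 3.97 to 24.3 TPM in AM, against 8.12 to 69.3 TPM in IM, 1.29 to 4.40 TPM in iMo and 1.66 to 23.0 TPM in pMo, and their part in the values of Cdh1 and Epcam was not tested.

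The genes with most AM-only peaks were mostly, not always, higher in AM. Tcf7l2 led with 21. It had 57.9 and 77.7 TPM in DBA2J AM and 55.7 and 54.3 TPM in C57BL6J AM, and 4.99 to 34.6 TPM (median 17.1) in the others, again without overlap. The means were 61.4 TPM in AM, 20.0 TPM in IM, 5.68 TPM in iMo and 27.4 TPM in pMo, and the log2 difference was 1.99 ± 0.16 (limma adjusted p = 7.2e-07). Among the 15 genes with most peaks (21 to 8 each), 12 were higher and 3 lower as deposited. Of all genes tested, 12.48% were higher and 59.3% lower. These 15 include 4 of the 11 genes tied at 8 peaks, taken by their best score. Besides those already described, Tns1, a link between integrins and actin, differed by 3.70, Nav2 by 3.07, Atxn1 by 2.34, Dapk1, a kinase of cell death, by 2.14, Adipor2, a receptor for adiponectin, by 1.62 and Frmd4a by 1.55.

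Exceptions among peak-rich genes were Myo1e, Nedd9, Rflna and A530013C23Rik. Myo1e, a class I myosin with 10 peaks, was higher than the mean of the others by 1.22, but as deposited differed from IM by -0.30 (limma adjusted p = 0.16). Nedd9, an adhesion scaffold with 8 peaks, averaged 43.3 TPM in AM, 53.4 TPM in IM, 53.4 TPM in iMo and 89.5 TPM in pMo. It was lower by -0.52 (adjusted p = 0.009) as deposited, but gave 0.18 after rescaling. A530013C23Rik, with 10 peaks, was lower by -1.23, and Rflna, with 8 peaks at 46.8 to 70.6 kb, was low, at 0.216 to 1.24 TPM in AM.

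**Figure D4:**
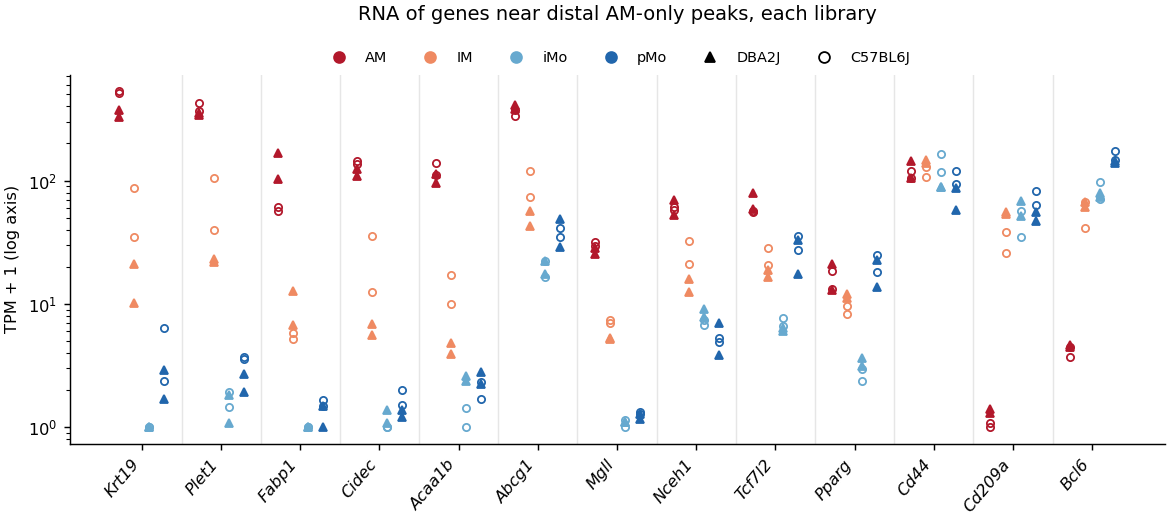
RNA levels (TPM + 1, log axis) of 13 genes near distal AM-only peaks in each of the 16 libraries, by cell type (colour) and strain (filled triangles DBA2J, open circles C57BL6J). From Krt19 to Tcf7l2 the AM libraries lie above all others, Pparg and Cd44 overlap, and Cd209a and Bcl6 are lowest in AM.

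The best-scored peaks did not point one way. The 12 highest scores ran from 615.7 down to 201.3. The first was a peak 72.3 kb inside Cd44 (chr2:102829309-102829509), with a score of 187.9 in DBA2J. The C57BL6J list holds a second score per peak, also on a scale not stated, with a median of 19 over the AM-only peaks. It was 19 for the Cd44 peak, so this peak ranks first by 1 score and in the middle by the other, while 10 of the 12 best had 63 to 112. Cd44, the receptor for hyaluronan, had 104 and 144 TPM in DBA2J AM and 119 and 104 TPM in C57BL6J AM, against 56.4 to 162 TPM (median 111) elsewhere. These overlapped, the log2 difference was 0.13 ± 0.14 (limma adjusted p = 0.41), and it was 0.84 and called higher after rescaling.

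Adarb1, an RNA editing enzyme, Trim29 and Ralgds were the clearest cases of a high score with high RNA. The Adarb1 peak scored 345.2, and Adarb1 had 8.96 and 12.6 TPM in DBA2J AM and 15.6 and 15.2 TPM in C57BL6J AM, against 0.031 to 5.92 TPM (median 0.161) elsewhere, a difference of 3.12 ± 0.19. The Trim29 peak scored 329.0 and the Ralgds peak 255.4, and the genes differed by 4.26 and 3.37. Pnliprp1, a relative of pancreatic lipase, had a peak with a score of 337.6 inside the gene but is listed at 0 TPM in all 16 libraries. Near other high peaks, Apopt1 (-1.02) and Cep135 (-1.34) were lower in AM as deposited. On the same scale Fam53b (0.29, limma adjusted p = 0.04) was barely higher, and Ttc39c (0.12) and Ergic1 (0.27) were not called. The peak assigned to Cep135 lay 76540 bp from its start, inside the RefSeq span of another gene, Cracd.

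Some genes with an AM-only peak had almost no RNA in AM. Cd209a, a lectin of dendritic cells and monocytes, had a peak with a score of 305.2, but a second score of only 17, at 5.5 kb upstream (chr8:3754351-3754551), and 0.301 and 0.410 TPM in DBA2J AM and 0.077 and 0 TPM in C57BL6J AM. The other 12 libraries had 24.8 to 81.4 TPM (median 53.4), all above AM, and the log2 difference was -5.42 ± 0.15 (limma adjusted p = 2.1e-10). Bcl6, a transcriptional repressor, had 1 peak 3.3 kb inside the gene and fell to 3.66 and 3.51 TPM in DBA2J AM and 3.52 and 2.70 TPM in C57BL6J AM, against 40.2 to 172 TPM elsewhere. F13a1, a clotting factor chain of monocytes, averaged 0.028 TPM in AM, 50.9 TPM in IM, 75.5 TPM in iMo and 2.46 TPM in pMo. Fgd2 (-4.75), Tmem121b (-4.01), Cd300a (-4.00), Trem3 (-3.87), Srgn (-3.78), Cbfa2t3 (-3.71) and Il1b (-3.60) were also among the 10 lowest. Of these 10 genes, 8 had 1 AM-only peak and 2, Cd300a and Il1b, had 2, and no sign changed with the scaling.

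The genes next to the printed windows divided likewise. Flvcr2, a membrane transporter, had 8 AM-only peaks, and 18.7 and 25.6 TPM in DBA2J AM and 22.2 and 22.3 TPM in C57BL6J AM, against 0.022 to 6.37 TPM (median 0.148) elsewhere, a difference of 3.81 ± 0.17 (limma adjusted p = 5.4e-09). Bcar3, an adaptor of integrin signalling, had 6 peaks and means of 39.8 TPM in AM, 15.4 TPM in IM, 0.569 TPM in iMo and 2.03 TPM in pMo, a difference of 3.30 ± 0.14. Piezo1, a mechanically gated channel, and Trak1, a motor adaptor of mitochondria, were lower by -0.50 and -0.55 as deposited and gave 0.20 and 0.12, without a call, after rescaling.

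Within AM, few genes near the peaks differed between strains. Since every peak here was found in both strains, the strain comparison asks whether nearby RNA differed all the same. In DBA2J against C57BL6J AM, 42 genes (2.79%) were higher and 33 (2.19%) lower, with 1.99% and 1.30% of all genes, close to the background. Once rescaled it was 60 (3.97%) and 65 (4.30%), with 2.79% and 2.57% of all. As deposited, the counts were 21 higher and 9 lower without C57BL6J AM replicate 1, 14 and 12 without C57BL6J AM replicate 2, 23 and 14 without DBA2J AM replicate 1, and 13 and 16 without DBA2J AM replicate 2. Plekha6 had 53.4 and 53.3 TPM in DBA2J AM and 1.55 and 1.14 TPM in C57BL6J AM, a log2 difference of 4.54 ± 0.21 (limma adjusted p = 5.9e-07). Crip1 (3.25), Matk (2.87), a tyrosine kinase, Spp1 (2.78), which encodes osteopontin, and Tcim (2.29) were also higher in DBA2J.

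Lower in DBA2J AM were Gal, Epcam, Ear7, Marco and Hspa8. Gal, the neuropeptide galanin, had 0.485 and 0.424 TPM in DBA2J AM and 34.8 and 31.5 TPM in C57BL6J AM, a log2 difference of -4.55 ± 0.42 (limma adjusted p = 7.6e-05). Marco, a scavenger receptor of AM, had 5 AM-only peaks in both strains, but 4.03 and 2.29 TPM in DBA2J AM against 32.4 and 36.9 TPM in C57BL6J AM. The log2 difference of Marco was -3.13 ± 0.67 (SE, limma adjusted p = 0.028), and the call was lost without any 1 AM library (adjusted p 0.093 to 0.25), as were those of Epcam and Tcim. Ear7 was listed at 0 in both DBA2J AM libraries and had 16.7 and 3.35 TPM in C57BL6J AM, and as a gene with near-identical copies it is uncertain.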

How the data were processed

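Sorted lung cells of 4 types from 2 mouse strains gave 2 RNA-seq and 2 ATAC-seq libraries per group. The deposited expression table gives TPM for 24940 genes, and the deposited peak lists give a score per peak, 1 list per cell type and strain made by the authors from 2 libraries. Per the submitters' processing notes, the build was mm10 and the tools were Bowtie, STAR and HOMER, without versions or roles. Every column of per-sample values was used, and depth is unknown.

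Peaks were joined to the nearest start of the expression table (start of the gene on the plus strand, end on the minus strand) within 100 kb, and clusters joined peaks at most 12.5 kb apart. For RNA, limma 3.58.1 (R 4.3.3) took log2(TPM + 1) of all 16 libraries into 1 fit, each group with its own mean (8 residual degrees of freedom, eBayes with trend), for the 12277 genes averaging 1 TPM or more, at a Benjamini-Hochberg adjusted p under 0.05. A fold change on this scale understates that of low genes. The code was tested on simulated data. Python 3.11.15, numpy 2.4.6, pandas 2.3.3 and matplotlib 3.10.9 served the peak steps and figures. The members, gene lists and comparisons were chosen with earlier results of these data known. Named are list genes with a peak, the 15 genes with most peaks, those of the 12 best-scored peaks and 5 largest clusters, and the 10 largest differences each way among called genes with at least 10 TPM (5 each way for strain). Flvcr2, Bcar3, Piezo1 and Trak1 were added for their printed windows, which were picked by no fixed rule from those that could be read. No genome was used, so motif shares over all peaks and the planned choice of sequence windows could not be made, and promoter windows of RefSeq were used in their place. Libraries with the same replicate number did not deviate together (12 pairs of groups within a strain, r from -0.075 to 0.146, 2 of them over 0.1) and were not paired. Alternatives covered scaling, pseudocount, filter, strain, distance, overlap and each library left out.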

Additional observations from a re-analysis of the deposited data

Results flagged for a closer look

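The difference of AM from the mean of the other types was itself compared between strains with an interaction term in the same limma model, a test added after the data had been seen. It called 343 of 12277 genes (2.79%), 74 of the 1505 genes near distal AM-only peaks (4.92%) and 11 of the 101 named genes tested. The named genes include the 5 largest strain differences each way within AM, and that difference is part of the interaction. Plekha6, Crip1, Matk, Spp1, Tcim, Gal and Ear7 were among these. The 11 calls are thus partly fixed by how genes were named and are not comparable with the share of all genes. With 2 libraries per group no library was tested for standing apart, and IM of C57BL6J replicate 2, with 3089 TPM of AM markers, is described with the results.

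Plekha6 differed most. Its log2 difference of AM from the other types was 4.50 in DBA2J and -0.04 in C57BL6J, an interaction of 4.54 ± 0.25 (SE, limma adjusted p = 4.61e-06). Crip1 changed sign, with 1.67 in DBA2J and -2.20 in C57BL6J (interaction 3.86 ± 0.50, adjusted p = 0.00148). Spp1 was higher in AM in both strains, by 6.61 in DBA2J and 3.52 in C57BL6J (interaction 3.10, adjusted p = 0.000493), and Tcim by 3.07 and 0.39 (2.68, adjusted p = 0.021).

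Matk was lower in AM by -0.94 in DBA2J and -3.89 in C57BL6J (interaction 2.95, adjusted p = 0.000216), Cd300a by -3.18 and -4.82 (1.64, adjusted p = 0.00707) and Fgd2 by -4.30 and -5.19 (0.89, adjusted p = 0.0229). Rflna gave 0.18 in DBA2J and -0.94 in C57BL6J (1.12, adjusted p = 0.0499). The AM difference was smaller in DBA2J for Gal, with 0.27 in DBA2J and 3.69 in C57BL6J (interaction -3.42, adjusted p = 0.00271), Ear7, with 0.00 and 3.13 (-3.13, adjusted p = 0.012), and Siglec1, with 0.94 and 2.35 (-1.41, adjusted p = 0.018).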

How the results depend on the processing

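The excess of the median log2 difference of genes near AM-only peaks over that of all genes was 0.36 and stayed positive throughout: 0.46 with a pseudocount of 0.1, 0.08 with no filter on low values, 0.41 with median-of-ratios scaling, 0.39 with quantile normalization, 0.44 without Rn45s and Mir6236, 0.39 in C57BL6J alone, 0.53 within 20 kb, 0.33 with only genes that passed the filter as nearest, and 0.54 for peaks in the upper part of the score. Scaling moved the counts. Median-of-ratios scaling gave 797 higher and 347 lower in AM than in the mean of the others, 778 and 298 against IM, 751 and 327 against iMo, 587 higher than each type, and 65 lower in DBA2J AM. Quantile normalization gave 768 and 352, 746 and 312 against IM, 326 lower than iMo, and 576 higher than each. Without Rn45s and Mir6236 it was 771 and 415, 630 and 458 against IM, 789 and 310 against iMo, 531 higher than each, and 74 higher in DBA2J AM. A minimum mean of 5 TPM left 19 lower in DBA2J AM. In C57BL6J alone 220 were higher than IM and 182 than each type, and in DBA2J alone 340 were lower than pMo. Assignment within 20 kb gave 391 lower than the mean, 405 than IM, 372 than iMo and 314 than pMo. The upper part of the score gave 325, 352, 307 and 269, with 25 higher and 20 lower in DBA2J AM. The number of AM-only peaks was 9696 where another type had to hold a peak in both strains, and 5682 without the list of IM of C57BL6J, an alternative chosen after seeing the data. A larger overlap, other distance limits or the DBA2J list as the base kept it between 3181 and 3779.

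Leaving out 1 library at a time gave 461 to 513 higher and 571 to 678 lower than the mean, 322 to 374 and 611 to 699 against IM, 449 to 496 and 525 to 616 against iMo, 504 to 551 and 461 to 571 against pMo, 266 to 311 higher than each type, and a median excess of 0.35 to 0.38. For strain it gave 13 to 45 higher and 9 to 38 lower: 21 and 9 without C57BL6J AM replicate 1, 14 and 12 without C57BL6J AM replicate 2, 23 and 14 without DBA2J AM replicate 1, and 13 and 16 without DBA2J AM replicate 2, where the lone library is assumed to vary like the other groups.

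Signs turned with median-of-ratios scaling for Fosl2 (0.67), Nedd9 (0.18), Piezo1 (0.20), Runx2 (0.61), Spi1 (0.15), Tfeb (0.11), Tgfbr1 (0.40) and Trak1 (0.12), with quantile normalization for Fosl2 (0.53), Nedd9 (0.09), Piezo1 (0.15), Runx2 (0.61), Spi1 (0.06) and Trak1 (0.11), and without Rn45s and Mir6236 for Fosl2 (0.50), Nedd9 (0.01) and Piezo1 (0.03). Plekha6 gave -0.04 in C57BL6J alone and Crip1 1.67 in DBA2J alone. Marco and Tcim lost their strain call with a pseudocount of 0.1 (limma adjusted p = 0.21 and 0.16). Of 2843 values of named genes over 26 settings, 2748 kept direction and call, 25 gained a call, 51 lost it and 19 turned. With the replicate number as a block, 509 were higher and 655 lower in AM than in the mean, 306 were higher than each type, 38 higher and 29 lower in DBA2J AM, and Mylip alone gained a call (adjusted p = 0.048). The causes were not tested. Motif shares over all peaks were not run.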
